A study of Rattus norvegicus with 12 samples.

Results

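MHC class II antigen presentation was followed in rat liver over 6 weeks of a high-fat emulsion through 8 genes: RT1-Ba, RT1-Bb, RT1-Da, RT1-Db1, RT1-DMa, RT1-DMb, Cd74 and Ciita. All probe sets that the deposited sheet names for these genes were taken, 13 of the 31042 on the array that are not controls, which together name 13890 genes. RT1-DMa and RT1-DMb stand in the sheet under the human-style symbols Hla-dma and Hla-dmb. A probe set passed the filter on dim signals if its mean over all 12 arrays exceeded the 30th percentile, and 12 of the 13 did. The series has 4 groups of 3 Affymetrix Rat Genome 230 2.0 arrays, all of liver from the Sprague-Dawley strain with a stated age of 12 weeks. One group is normal liver (0h), and the other groups had received the emulsion for 2, 4 or 6 weeks to model nonalcoholic fatty liver disease. RNA came from the right lobe. The labels call the arrays of a group technical replicates and do not say how many rats lie behind them, so the p-values below measure the spread between arrays, which may be technical.

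MHC class II molecules are pairs of an alpha and a beta chain that carry peptides from engulfed proteins to the cell surface and show them to CD4+ T cells. In the rat, RT1-Ba and RT1-Bb encode the RT1.B pair, the counterpart of human HLA-DQ, and RT1-Da and RT1-Db1 encode the RT1.D pair, the counterpart of HLA-DR. Cd74, the invariant chain, fills the groove of new class II molecules and guides them to endosomes, where the DM pair (RT1-DMa and RT1-DMb) swaps the remaining Cd74 fragment for an antigenic peptide. Ciita is the coactivator that switches on class II promoters, and interferon gamma induces it in many cell types. In liver, class II molecules are known from dendritic cells, Kupffer cells, B cells and sinusoidal endothelial cells, while resting hepatocytes carry little.

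Promoters of class II chains, of the DM genes and of Cd74 are known for a shared X box and Y box, which hold the factors that Ciita binds to. The RefSeq promoter table for assembly GRCr8 (250 bases before to 50 bases after each annotated start) held 6 of the 8 members. RT1-DMb and Ciita are named only. The windows shown hold the forward box letters of 5 members that lie together on chromosome 20 (a reverse Y box of RT1-Bb at -172 to -168 lies outside), each 5′ to 3′ on the gene's own strand. Capitals mark the Y box (ATTGG, or CCAAT on the other strand) and the X box end (AACNGATG, searched on both strands). The coordinates are chr20:4576954-4577053 (plus strand) for RT1-Ba, chr20:4604140-4604239 (minus strand) for RT1-Bb, chr20:4515306-4515405 (plus strand) for RT1-Da, chr20:4560203-4560302 (minus strand) for RT1-Db1 and chr20:4712360-4712459 (minus strand) for RT1-DMa.
RT1-Ba: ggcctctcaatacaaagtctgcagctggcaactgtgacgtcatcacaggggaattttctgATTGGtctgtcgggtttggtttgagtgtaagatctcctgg
RT1-Bb: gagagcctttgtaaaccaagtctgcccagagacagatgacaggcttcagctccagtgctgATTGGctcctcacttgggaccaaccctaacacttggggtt
RT1-Da: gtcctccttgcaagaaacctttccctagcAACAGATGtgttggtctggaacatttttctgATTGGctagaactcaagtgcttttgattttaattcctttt
RT1-Db1: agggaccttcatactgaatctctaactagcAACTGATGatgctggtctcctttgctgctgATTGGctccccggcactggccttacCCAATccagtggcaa
RT1-DMa: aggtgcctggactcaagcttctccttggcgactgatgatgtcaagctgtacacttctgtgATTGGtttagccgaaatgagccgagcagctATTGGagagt

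A Y box stood in all 6 promoters, read forward between 80 and 30 bases before the start in the 5 members on chromosome 20 and only in reverse in Cd74, at -189 to -185. These 5 letters are common: 37.5% of the 33469 promoters in the table held them on one strand or the other. The X box end was found in RT1-Da (-80 to -73) and RT1-Db1 (-110 to -103), against 2.58% of all promoters. In both, a forward Y box followed it after 15 to 30 bases, a spacing chosen after the sequences had been seen. That arrangement occurred in 6 of the 33469 promoters (0.0179%), namely LOC134479472, Ndufaf2, RT1-DOb, RT1-Da, RT1-Db1 and RT1-Db2. Only exact letters were searched. Near matches that differ in a single letter, such as gacagatg in the RT1-Bb window and gactgatg in that of RT1-DMa, were not counted. A match describes letters in a window and is not evidence of a bound site.

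**Figure D1:**
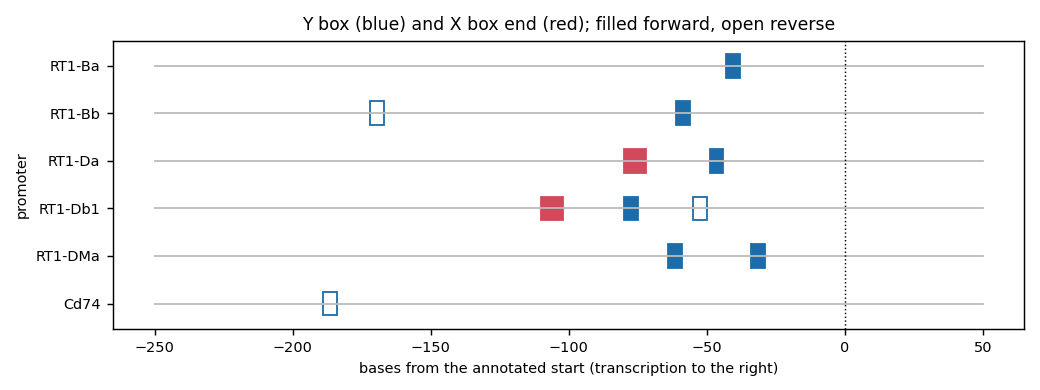
Positions of the Y box (blue) and the X box end (red) in the promoters of 6 members, in bases from the annotated start, with filled boxes read forward and open boxes in reverse. The X box end is seen in RT1-Da and RT1-Db1, and the Y box of Cd74 lies apart, at -189 to -185.

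Both chains of RT1.B and of RT1.D had lower signals after 2 and 4 weeks of feeding and higher signals after 6 weeks by at least 1 probe set each, and the other members followed in part. At 2 weeks, 6 of the 12 tested member probe sets, from 5 genes (RT1-Ba, RT1-Bb, RT1-Da, RT1-Db1 and RT1-DMb), were called lower than at 0h. Over all 21729 probe sets tested, 10.8% were called lower in that comparison. At 4 weeks, 8 of 12, from every member but Ciita, were called lower than at 0h, with 12.3% of all probe sets called lower. At 6 weeks, 6 of 12, from 6 genes (RT1-Ba, RT1-Bb, RT1-Da, RT1-Db1, RT1-DMb and Cd74), were called higher than at 0h, with 9.40% of all probe sets called higher. A call means an adjusted p under 0.05 from limma, with Benjamini-Hochberg adjustment over all 21729 probe sets. The median log2 difference from 0h over the 12 probe sets was -0.38 at 2 weeks, beside -0.02 over all probe sets tested. It was -0.83 at 4 weeks, beside -0.05, and 1.41 at 6 weeks, beside -0.02. In whole liver, fewer cells that carry a transcript and less of it per cell cannot be told apart.

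Differences below are on the log2(signal + 1) scale with their standard error (SE). Signals are in the scaled units of the deposited files, and differences are taken only within a probe set. The summed signals of gene lists further below add different probe sets, so the brightest weigh most in them. The 3 comparisons with 0h share the 0h arrays.

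RT1-Ba, the alpha chain of RT1.B, has 4 probe sets, and the brightest (1370822_at) moved in the same way on every array. Its signals were 2266.4, 2461.7 and 2301.7 at 0h and 1340.3, 1334.5 and 1368.5 at 2 weeks. They were 659.6, 733.9 and 688.4 at 4 weeks and 7717.9, 7453.5 and 7336.3 at 6 weeks. All 4 groups were separate. The log2 difference from 0h was -0.80 ± 0.07 at 2 weeks (adjusted p = 4.55e-05), -1.75 ± 0.07 at 4 weeks (adjusted p = 2.38e-07) and 1.68 ± 0.07 at 6 weeks (adjusted p = 3.27e-07). RT1-Ba was thus 3.37-fold lower at 4 weeks and 3.2-fold higher at 6 weeks than at 0h.

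Of the other 3 RT1-Ba probe sets, no comparison was called, although 1377334_at also had its lowest group mean at 4 weeks and its highest at 6 weeks. Probe set 1377334_at gave 461.4, 289.8 and 487.8 at 0h and 291.6, 304.9 and 889.1 at 2 weeks. It gave 251.2, 197.3 and 635.1 at 4 weeks and 1145.1, 1067.9 and 860.2 at 6 weeks. Replicate 3 of both the 2-week and the 4-week group lay far above its group, and the 6-week arrays lay above those of 0h. Its log2 difference at 6 weeks was 1.33 ± 0.51 (adjusted p = 0.0992), and at 2 weeks it had the opposite sign to the brightest probe set, 0.09 ± 0.51 (adjusted p = 0.92). Probe set 1381593_x_at ranged from 55.8 to 92.8 and 1392334_at from 44.4 to 129.9 over all 12 arrays, close to the 30th percentile of an array (45.5 to 54.0). Their log2 differences at 6 weeks against 0h were -0.08 ± 0.23 and -0.03 ± 0.32, where the brightest probe set was called higher. Without 2-week replicate 3 the 6-week difference of 1377334_at was called (adjusted p = 0.0495, the lowest of a range up to 0.245 over 20 alternatives). Its difference between 6 and 4 weeks, 1.68 ± 0.51 (adjusted p = 0.0918), was called without 2-week or 4-week replicate 3 and with trend and robust moderation (adjusted p 0.0345 to 0.238 over 20 alternatives). The difference between probe sets was not tested. The RT1 genes are polymorphic between rat strains, and which alleles the probes match was not analysed here.

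RT1-Bb, the beta chain of RT1.B, followed the brightest probe set of its partner. Probe set 1371033_at had signals of 1671.4, 1562.1 and 1595.7 at 0h and 1199.5, 1123.6 and 1108.2 at 2 weeks. It had 702.7, 638.6 and 687.8 at 4 weeks and 6856.9, 6311.3 and 6505.3 at 6 weeks. Again the 4 groups did not overlap. It was 2.38-fold lower at 4 weeks (log2 difference -1.25 ± 0.07, adjusted p = 3.32e-06) and 4.07-fold higher at 6 weeks (2.03 ± 0.07, adjusted p = 1.4e-07) than at 0h. At 2 weeks the log2 difference was -0.49 ± 0.07 (adjusted p = 0.000992). Its other probe set, 1371065_at, was too dim to be tested, with signals of 8.1 to 86.4. On 9 of the 12 arrays, all but 1 at 2 weeks and 2 at 6 weeks, it lay below the 30th percentile.

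RT1-Da, the alpha chain of RT1.D, has 1 probe set (1370883_at), and its human counterpart is known to vary little between people. Its signals were 4599.8, 4353.7 and 4567.7 at 0h and 3017.2, 3022.2 and 2950.7 at 2 weeks. They were 2378.8, 2514.9 and 2295.1 at 4 weeks and 14898.5, 14190.4 and 14296.4 at 6 weeks. No groups overlapped, and the 2-week arrays lay close together, from 2950.7 to 3022.2. RT1-Da was 1.5-fold lower at 2 weeks (-0.59 ± 0.06, adjusted p = 0.000197), 1.88-fold lower at 4 weeks (-0.91 ± 0.06, adjusted p = 1.13e-05) and 3.21-fold higher at 6 weeks (1.68 ± 0.06, adjusted p = 2.09e-07) than at 0h.

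RT1-Db1, the beta chain of RT1.D, has 2 probe sets, which were alike in direction and differed in size. Probe set 1370383_s_at, whose suffix marks probes shared with other transcripts, such as a near copy of the gene, gave 1352.2, 1333.8 and 1245.2 at 0h and 1158.2, 993.0 and 910.7 at 2 weeks. It gave 638.9, 700.4 and 673.1 at 4 weeks and 4594.3, 4229.7 and 4350.6 at 6 weeks. Its log2 difference from 0h was -0.37 ± 0.09 at 2 weeks (adjusted p = 0.0204), -0.97 ± 0.09 at 4 weeks (adjusted p = 0.000117) and 1.74 ± 0.09 at 6 weeks (adjusted p = 2.44e-06). Here too the 4 groups were separate. The 2-week call was lost on leaving out 1 array in 4 cases (0h replicate 1 or 2, or 2-week replicate 2 or 3), with an adjusted p of 0.0579 to 0.0658. Over all 21 alternatives it ran from 0.00322 to 0.0658.

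Probe set 1370382_at of RT1-Db1 had larger differences downward and a smaller one upward, which was not tested. It gave 1241.9, 1253.2 and 1333.6 at 0h and 523.5, 464.2 and 637.3 at 2 weeks. It gave 197.9, 250.3 and 332.0 at 4 weeks and 2463.6, 1591.0 and 2098.5 at 6 weeks. No groups overlapped, and the spread among the 6-week arrays was wide. It was 2.37-fold lower at 2 weeks (-1.25 ± 0.21, adjusted p = 0.00265) and 5-fold lower at 4 weeks (-2.32 ± 0.21, adjusted p = 7.9e-05). At 6 weeks its log2 difference was 0.66 ± 0.21 (adjusted p = 0.0534), which missed the threshold, where the other probe set had 1.74. It was called under 9 of the 20 alternative settings that gave a value, 3 of which left out 1 array (4-week replicate 1 or 3, or 6-week replicate 2), and the adjusted p ran from 0.011 to 0.163.

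Cd74, the invariant chain, was not called at 2 weeks. Its probe set (1367679_at) had signals of 4996.4, 4939.7 and 4926.9 at 0h and 4870.1, 4729.6 and 4685.8 at 2 weeks. Its signals were 3598.4, 3446.1 and 2832.7 at 4 weeks and 16403.6, 14729.3 and 13792.1 at 6 weeks. All 2-week arrays lay below those of 0h by little, all 4-week arrays lay below them, and all 6-week arrays lay above every other array. The log2 difference from 0h was -0.06 ± 0.10 at 2 weeks (adjusted p = 0.734). Cd74 was 1.51-fold lower at 4 weeks (-0.60 ± 0.10, adjusted p = 0.00237) and 3.01-fold higher at 6 weeks (1.59 ± 0.10, adjusted p = 6.84e-06) than at 0h.

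The DM chains serve peptide loading, and both were called lower at 4 weeks, but only RT1-DMb was called higher at 6 weeks. RT1-DMb (1370882_at) had signals of 1769.2, 1817.8 and 1811.7 at 0h and 1207.4, 1502.5 and 1392.5 at 2 weeks. It had 1056.4, 1071.4 and 1055.1 at 4 weeks and 2281.0, 2152.6 and 2359.1 at 6 weeks, with no overlap between groups. It was 1.32-fold lower at 2 weeks (-0.40 ± 0.08, adjusted p = 0.00783), 1.7-fold lower at 4 weeks (-0.76 ± 0.08, adjusted p = 0.000248) and 1.26-fold higher at 6 weeks (0.33 ± 0.08, adjusted p = 0.021). The 6-week call was lost with no filter on dim probe sets (adjusted p = 0.0521) and on leaving out 0h replicate 1 or 3, or 6-week replicate 1 or 3 (0.0541 to 0.0712). Over all 21 alternatives its adjusted p ran from 0.00326 to 0.0712.

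RT1-DMa (1370904_at) had signals of 631.2, 557.7 and 536.8 at 0h, and 513.7, 379.4 and 496.9 at 2 weeks. It had 306.2, 275.6 and 347.6 at 4 weeks and 641.4, 807.1 and 801.5 at 6 weeks. Of its differences from 0h only that at 4 weeks was called, 1.86-fold lower (-0.89 ± 0.15, adjusted p = 0.00229). The log2 difference from 0h was -0.32 ± 0.15 at 2 weeks (adjusted p = 0.155) and 0.38 ± 0.15 at 6 weeks (adjusted p = 0.106), although each 6-week array lay above each 0h array.

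Ciita, the coactivator, was read near the floor of the array by its 1 probe set (1369214_a_at). Its signals were 35.9, 117.2 and 31.5 at 0h and 84.7, 66.4 and 38.6 at 2 weeks. They were 39.2, 66.1 and 52.1 at 4 weeks and 168.4, 143.4 and 124.2 at 6 weeks. Every 6-week array lay above all others, while 2 of 3 arrays at 0h, and 1 of 3 at 2 and at 4 weeks, lay below the 30th percentile. The log2 difference at 6 weeks was 1.48 ± 0.47, 2.79-fold, and missed the threshold (adjusted p = 0.0539). Without 0h replicate 2, the brightest of its group, the log2 difference was 2.07 (adjusted p = 0.00374). Without that array the differences from 2 weeks (adjusted p = 0.0419) and from 4 weeks (adjusted p = 0.0233) were called too. Over the 20 alternatives that gave a value, the adjusted p at 6 weeks against 0h ran from 0.00374 to 0.167.

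**Figure D2:**
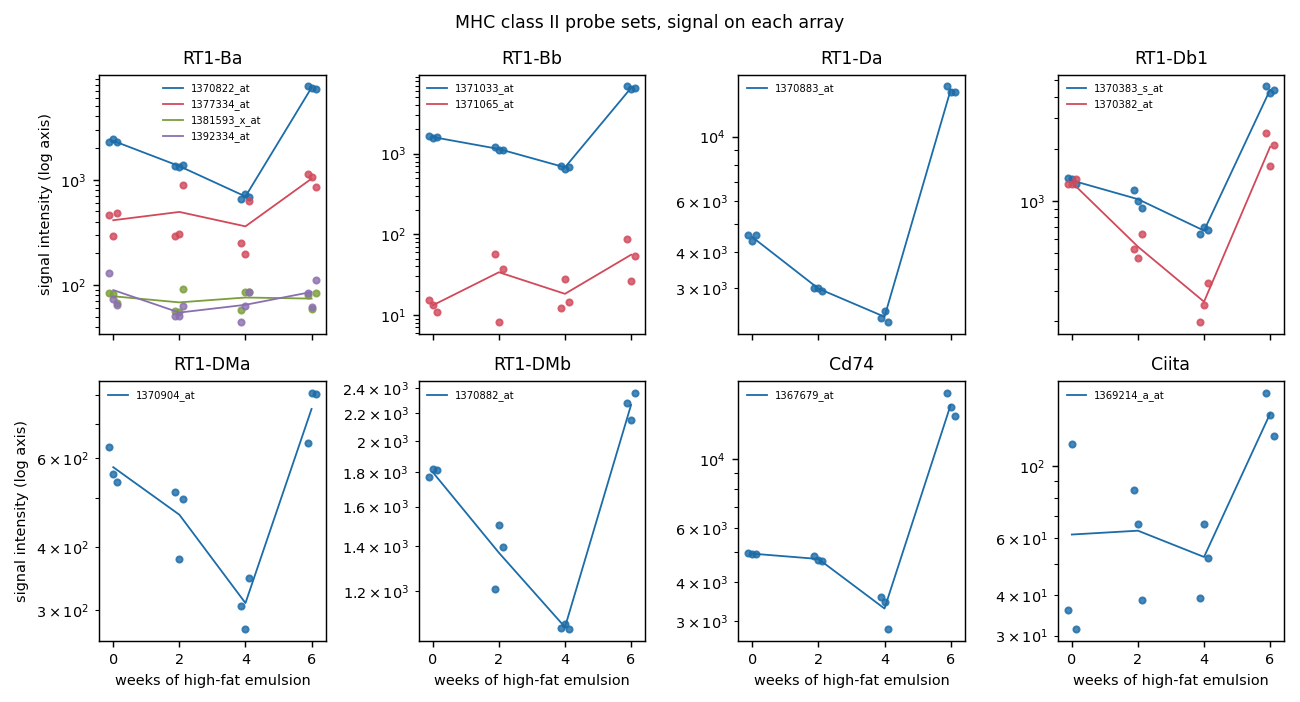
Signal intensity (log axis) of every member probe set on each of the 12 arrays against weeks of high-fat emulsion, with 0 for normal liver. Points are arrays and lines join group means. RT1-Ba 1370822_at, RT1-Bb 1371033_at, RT1-Da, both RT1-Db1 probe sets, both DM chains and Cd74 are lowest at 4 weeks and highest at 6 weeks.

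Between the fed groups the step down came first and the step up after it. From 2 to 4 weeks, 8 of the 12 probe sets, from all members but Ciita, were called lower at 4 weeks, against 4.79% of all probe sets. RT1-Db1 1370382_at had a log2 difference of -1.08 ± 0.21 (adjusted p = 0.0137), RT1-Ba 1370822_at of -0.96 ± 0.07 (adjusted p = 2.77e-05) and RT1-Bb 1371033_at of -0.76 ± 0.07 (adjusted p = 0.000184). The called steps of the others ran from -0.60 for RT1-Db1 1370383_s_at to -0.32 for RT1-Da. The count was 5 when arrays were centred on their medians and 5 without 2-week replicate 3. The steps of RT1-DMa (adjusted p = 0.0435) and RT1-DMb (adjusted p = 0.0288) were the least settled, since 13 and 8 of the 21 alternatives took their calls away, with adjusted p up to 0.139 and 0.0967. These included the replicate block, with 0.07 for RT1-DMa and 0.0544 for RT1-DMb, and the leaving out of any 1 of the 4-week arrays for RT1-DMb. The call of RT1-Db1 1370382_at was lost without 2-week replicate 3 (adjusted p = 0.0521, the highest of 20 alternatives) and that of RT1-Da with median centring (adjusted p = 0.0602, the highest of 21).

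The step to 6 weeks from 4 weeks was upward: 8 of 12 probe sets, from 7 genes, were called higher, where 3.44% of all probe sets were called higher. RT1-Ba 1370822_at was 10.8-fold higher (3.43 ± 0.07, adjusted p = 9.7e-09), RT1-Bb 1371033_at 9.69-fold (3.28 ± 0.07, adjusted p = 1.23e-08) and RT1-Db1 1370382_at 7.91-fold (2.98 ± 0.21, adjusted p = 4.15e-05). RT1-Db1 1370383_s_at was 6.54-fold higher, RT1-Da 6.04-fold and Cd74 4.56-fold. RT1-DMa was 2.41-fold higher (1.27 ± 0.15, adjusted p = 0.00104) and RT1-DMb 2.13-fold (1.09 ± 0.08, adjusted p = 7.02e-05). Ranked by log2 difference among all 21729 probe sets, RT1-Ba 1370822_at stood at place 4 from the top and RT1-Bb 1371033_at at 5. The RT1-Db1 probe sets stood at 8 and 12, RT1-Da at 13 and Cd74 at 30. RT1-DMa and RT1-DMb stood at places 249 and 391. Of the probe sets not called, RT1-Ba 1377334_at stood at 88 and Ciita at 136. The remaining RT1-Ba probe sets stood at 2755 (1392334_at) and 12234 (1381593_x_at). The Ciita difference of 1.47 ± 0.47 was not called (adjusted p = 0.109).

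Set against 2 weeks, the 6-week arrays had 8 of 12 probe sets from 7 genes called higher, where 2.77% of all probe sets were. RT1-Bb 1371033_at was 5.73-fold higher, RT1-Ba 1370822_at 5.56-fold and RT1-Da 4.82-fold, each with an adjusted p of 5.02e-08. Cd74 was 3.14-fold higher (1.65 ± 0.10, adjusted p = 1.29e-05), RT1-DMb 1.66-fold (adjusted p = 0.000874) and RT1-DMa 1.62-fold (adjusted p = 0.0227). The RT1-DMa call was lost under 4 of the 21 alternatives. These were no filter on dim probe sets (adjusted p = 0.051) and the leaving out of 2-week replicate 2 or of 6-week replicate 2 or 3. Its adjusted p ran from 0.00324 to 0.0808 over the alternatives. The median over the 12 probe sets was 1.94 at 6 weeks against 4 weeks and 1.45 at 6 weeks against 2 weeks, beside 0.02 and -0.01 over all probe sets.

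**Figure D3:**
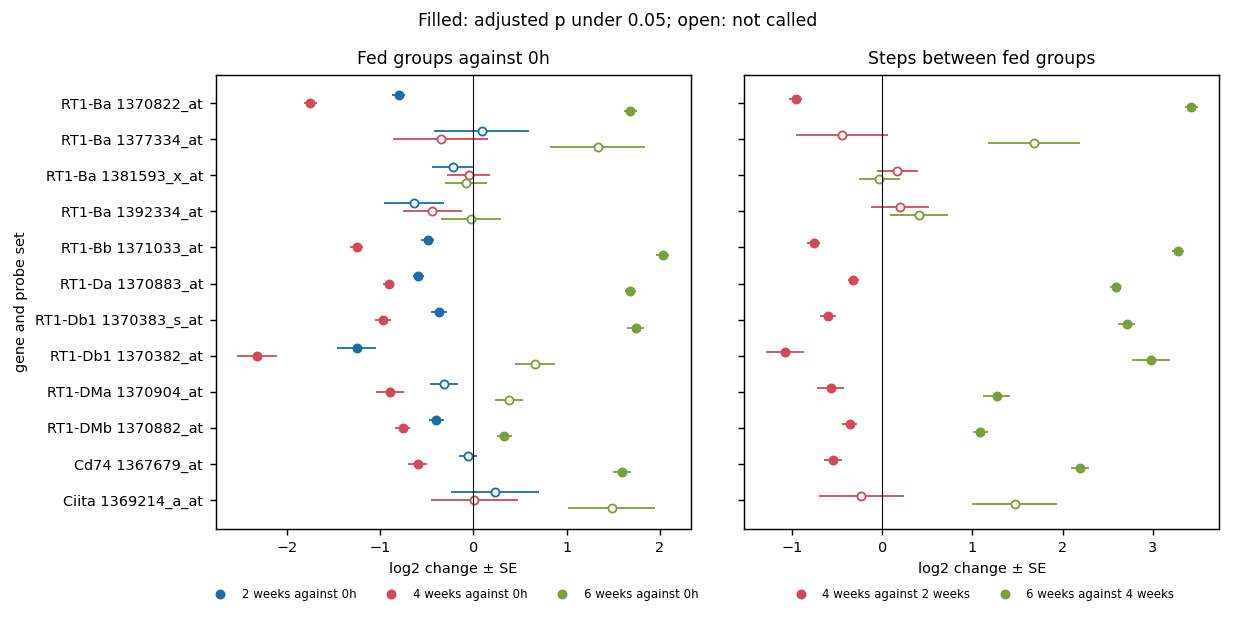
Log2 difference ± SE of the 12 tested member probe sets, fed groups against 0h (left) and later against earlier fed group (right). Filled points had an adjusted p under 0.05 and open points did not. RT1-Ba 1370822_at reaches 3.43 and RT1-Bb 1371033_at 3.28 at 6 weeks against 4 weeks, while 3 RT1-Ba probe sets and Ciita have open points throughout.

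The authors' deposited table also sets every fed array over every 0h array as a log2 ratio, which makes 9 pairs at each time. In that authors' deposited table the ratios of Cd74 at 6 weeks had a median of 1.5 (1.5 to 1.7), those of RT1-Da 1.7 (1.5 to 1.8) and those of RT1-Bb 1371033_at 1.8 (1.7 to 2.0). These stand close to the signal differences of 1.59, 1.68 and 2.03. At 2 weeks the ratios of RT1-Da ran from -0.5 to -0.3, where the signal difference was -0.59. At 4 weeks they ran from -0.8 to -0.5, where it was -0.91, so both signal differences lay outside the ratios. For some member probe sets the authors' deposited table and the signals differed. For RT1-Db1 1370382_at the authors' deposited table gave a median of 1.5 at 6 weeks (1.3 to 1.6), where the signal difference was 0.66. For Ciita it gave a median of 3.3 at 6 weeks (0.5 to 4.1, all 9 pairs above 0), where the signal difference was 1.48. For RT1-Ba 1377334_at the authors' deposited table gave a median of 0.8 at 4 weeks (-0.5 to 1.3), where the signal difference was -0.35 ± 0.51. For RT1-Ba 1381593_x_at at 6 weeks the authors' deposited table gave a median of 0.3 (0.0 to 0.5, 8 of 9 pairs above 0), where the signal difference was -0.08 ± 0.23. RT1-DMa, not called at 6 weeks from the signals, had ratios above 0 in all 9 pairs of the authors' deposited table, with a median of 0.5. The pairs share arrays and are not independent.

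**Figure D4:**
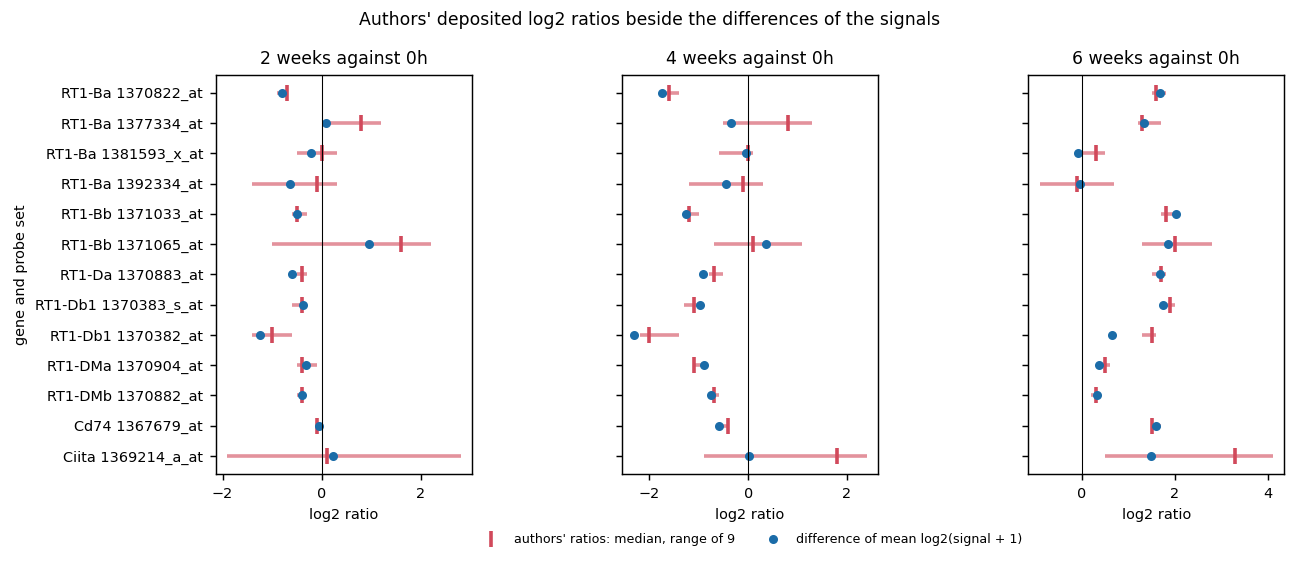
Log2 ratios from the authors' deposited table for all 13 member probe sets (bar: lowest to highest of 9 pairs of arrays; tick: median) beside the difference of mean log2(signal + 1) (blue point). At 6 weeks the blue point of RT1-Db1 1370382_at (0.66) lies far below its bar (1.3 to 1.6), and those of RT1-Ba 1381593_x_at (-0.08 against 0.0 to 0.5) and RT1-Bb 1371033_at (2.03 against 1.7 to 2.0) lie just outside theirs, as do those of RT1-DMa and RT1-DMb by less than the 1 decimal of the ratios.

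Over the 12 arrays, the members rose and fell with RT1-Da to different degrees. Pearson's r with RT1-Da, a description over 12 arrays that share 4 group means, was 0.993 for RT1-Bb 1371033_at, 0.992 for RT1-Db1 1370383_s_at, and 0.978 for both RT1-Ba 1370822_at and Cd74. It was 0.912 for RT1-DMb, 0.849 for RT1-DMa and 0.708 for Ciita. The other RT1-Ba probe sets had 0.72 (1377334_at), 0.442 (1392334_at) and 0.058 (1381593_x_at), and RT1-Db1 1370382_at had 0.875. Of genes that are not members, Gbp2, an interferon-induced guanylate-binding protein, was most like both RT1-Da (r = 0.994) and Cd74 (r = 0.972). Its mean signal was 1178.5 at 0h and 882.2 at 2 weeks, then 735.1 at 4 weeks and 2505.1 at 6 weeks. After it came Irf1 (0.976), Ifit1 (0.970), RT1-N3 (0.969) and Tcrb (0.963) for RT1-Da, and RT1-Aw2 (0.969), Irf1 (0.965), Ifit1 (0.953) and Ndufaf4 (0.950) for Cd74. These values belong to 1 of 10 probe sets of RT1-Aw2 and to 1 of 2 each of RT1-N3 and Tcrb. The other RT1-Aw2 probe sets were mixed. Some ran differently: at 4 weeks against 0h, differences of 0.84 ± 0.09 and 0.56 ± 0.07 were called higher. Another RT1-Aw2 probe set had -0.03 ± 0.33 at 6 weeks against 0h. A further RT1-Aw2 probe set moved as RT1-Da did, and each of its differences from 0h was called. These were -1.22 ± 0.13 at 2 weeks, -1.5 ± 0.13 at 4 weeks and 0.83 ± 0.13 at 6 weeks. Irf1 is an interferon-induced transcription factor, Ifit1 an interferon-induced antiviral protein, RT1-N3 and RT1-Aw2 are class I genes, and Tcrb is a T cell receptor chain.

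Of genes of interferon gamma signalling, the pathway that induces Ciita, Irf1 had mean signals of 3071.9 at 6 weeks and 1714.8 at 0h (0.85 ± 0.10, adjusted p = 0.000477). At 4 weeks, when the class II genes were lowest, Irf1 was lower than at 0h (-0.34 ± 0.10, adjusted p = 0.042). At 2 weeks it was not called (-0.22 ± 0.10, adjusted p = 0.159). The receptor chains Ifngr1 and Ifngr2 had differences of -0.04 ± 0.07 and 0.01 ± 0.12 at 6 weeks against 0h, neither of them called. Ifngr1 was called higher at 2 weeks than at 0h (0.40 ± 0.07, adjusted p = 0.00244). It was called lower at 6 weeks than at 2 weeks (-0.44 ± 0.07, adjusted p = 0.00414). Ifng itself was too dim to be tested, with mean signals of 57.2 at 6 weeks and 27.9 at 0h.

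No other tested regulator of class II transcription was called at 6 weeks against 0h. Their median log2 difference was -0.16, beside 1.48 ± 0.47 for Ciita, which was not called either (adjusted p = 0.0539). Of 8 tested genes of that list, which holds promoter factors (Rfx5, Rfxap, Nfya, Nfyb, Nfyc, Creb1) and the repressors Ezh2 and Prdm1, limma called none, and 3 had an unadjusted p under 0.05. The X box factor Rfx5 had a difference of -0.06 ± 0.08 (adjusted p = 0.657). At 4 weeks against 0h, 2 of the 8 were called lower, where 13.2% of genes were: Nfyc (-0.36 ± 0.09) and Rfx5 (-0.28 ± 0.08). Nfyb was called lower at 2 weeks than at 0h (-0.57 ± 0.11). At 6 weeks against 2 weeks it was the 1 of 8 called higher (0.73 ± 0.11), where 3.44% of genes were. Of 10 tested genes of antigen processing, 1 was called higher and 4 lower at 6 weeks against 0h, where 12.6% of genes were called higher and 10.6% lower. The proteases Ctsf (-0.51 ± 0.11, adjusted p = 0.0112), Ctsl (-0.38 ± 0.07, adjusted p = 0.00557) and Lgmn (-0.27 ± 0.08, adjusted p = 0.0344) were lower, and Cst3, a cathepsin inhibitor, was higher (0.27 ± 0.06, adjusted p = 0.0135). A further probe set of Lgmn moved the opposite way without a call (0.98 ± 0.53). Ctss, the cathepsin known for trimming Cd74, had mean signals of 6213.4 at 6 weeks and 4816.3 at 4 weeks (0.37 ± 0.06, adjusted p = 0.00757), and a difference of -0.04 ± 0.06 at 6 weeks against 0h (adjusted p = 0.725). Of the costimulatory genes of antigen-presenting cells and T cells, only Cd86 and Ctla4 could be tested of 6 on the array. Neither was called at 6 weeks against 0h, and neither had an unadjusted p under 0.05. No probe set carried the symbol of RT1-DOa, RT1-DOb, RT1-Db2, RT1-Ha, RT1-Hb or RT1-Bb2.

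Markers of the cells known to carry class II did not all move with the members. Kupffer cell and macrophage markers (11 genes tested) had a summed signal of 39326 to 40125 at 0h and 44992 to 47721 at 2 weeks. The sum was 32238 to 32715 at 4 weeks and 37139 to 38562 at 6 weeks. None of the 11 lay under the 30th percentile on all arrays of a group. At 4 weeks, 7 of them were called lower than at 0h, where 13.2% of genes were, and at 4 weeks against 2 weeks 10 were called lower, where 6.15% of genes were. Higher at 6 weeks than at 4 weeks were 3 of them, where 4.55% of genes were: Adgre1 (0.64 ± 0.11), Csf1r (0.40 ± 0.09) and Cd5l (0.36 ± 0.07). At 6 weeks against 0h, 1 was called higher and 4 lower, where 12.6% of genes were called higher and 10.6% lower. Cd5l was the higher one (0.24 ± 0.07), and Cd163 (-0.81 ± 0.11), Mrc1 (-0.50 ± 0.06), C1qa (-0.43 ± 0.09) and C1qb (-0.43 ± 0.09) were the lower ones. Against 2 weeks, 7 of the 11 were called lower at 6 weeks, where 4.39% of genes were. At 2 weeks, when most class II genes were lower, 3 of the 11 were called higher than at 0h, where 13.6% of genes were. The part of these cells in the class II result was not tested.

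B cell markers had a summed signal of 863 to 990 at 0h and 884 to 966 at 2 weeks, then 720 to 919 at 4 weeks and 850 to 928 at 6 weeks (7 genes). Dendritic cell markers had 1115 to 1241 at 0h and 1273 to 1499 at 2 weeks, then 1162 to 1219 at 4 weeks and 1121 to 1224 at 6 weeks (7 genes). Of the 6 genes tested in each list, limma called none at 6 weeks against 0h. An unadjusted p under 0.05 was reached by 1 dendritic cell marker and by none of the B cell markers. At 4 weeks against 0h no B cell marker was called, and 2 of the 6 had an unadjusted p under 0.05. The dim Cd79b had mean signals of 71.4 at 0h and 27.5 at 4 weeks (-1.86 ± 0.67), while Ms4a1 had 0.41 ± 0.18. In each list 1 gene, Cr2 among B cell markers and Flt3 among dendritic cell markers, was too dim to be tested. Liver endothelial markers had a summed signal of 12834 to 13418 at 0h and 15571 to 16278 at 2 weeks, then 12326 to 12431 at 4 weeks and 12376 to 13073 at 6 weeks (10 genes). Against 0h, 3 were called higher at 2 weeks, where 13.6% of genes were, and 2 lower at 4 weeks, where 13.2% were. At 6 weeks against 0h, 1 was called higher, Fcgr2b (0.25 ± 0.06), and 1 lower, Stab2 (-0.86 ± 0.07). Over all genes 12.6% were called higher and 10.6% lower there.

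T cell markers (10 genes) had a summed signal of 1540 to 1814 at 0h and 1220 to 1328 at 2 weeks. It was 1349 to 1515 at 4 weeks and 2174 to 2449 at 6 weeks, so the highest arrays were those of 6 weeks. At 6 weeks against 0h, 2 of 8 tested were called higher, where 12.6% of genes were: the kinase Lck (0.61 ± 0.10, adjusted p = 0.00283) and Cd5 (0.61 ± 0.18, adjusted p = 0.0364). At 6 weeks against 2 weeks 5 of 8 were called higher, where 3.44% of genes were. Against 4 weeks, 1 of 8, Lck (0.66 ± 0.10), was called higher at 6 weeks, where 4.55% of genes were. Cd3e (-0.03 ± 0.20) and Cd4 (-0.21 ± 0.13) were among those not called at 6 weeks against 0h. Of 8 hepatocyte markers 2 were called lower at 6 weeks against 0h, where 10.6% of genes were. Of 5 tested cholangiocyte markers and 3 neutrophil markers limma called none there, with 2 and 0 at an unadjusted p under 0.05. In other comparisons 2 of the 3 neutrophil markers, S100a8 and S100a9, were called. Against 0h both were higher at 2 weeks (0.78 ± 0.10 and 0.88 ± 0.07), where 13.6% of genes were. Both were lower at 4 weeks (-1.21 ± 0.10 and -0.85 ± 0.07), where 13.2% of genes were. From 4 to 6 weeks both were called higher (1.12 ± 0.10 and 0.90 ± 0.07), where 4.55% of genes were. The part of T cells and of neutrophils in the class II result was not tested.

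**Figure D5:**
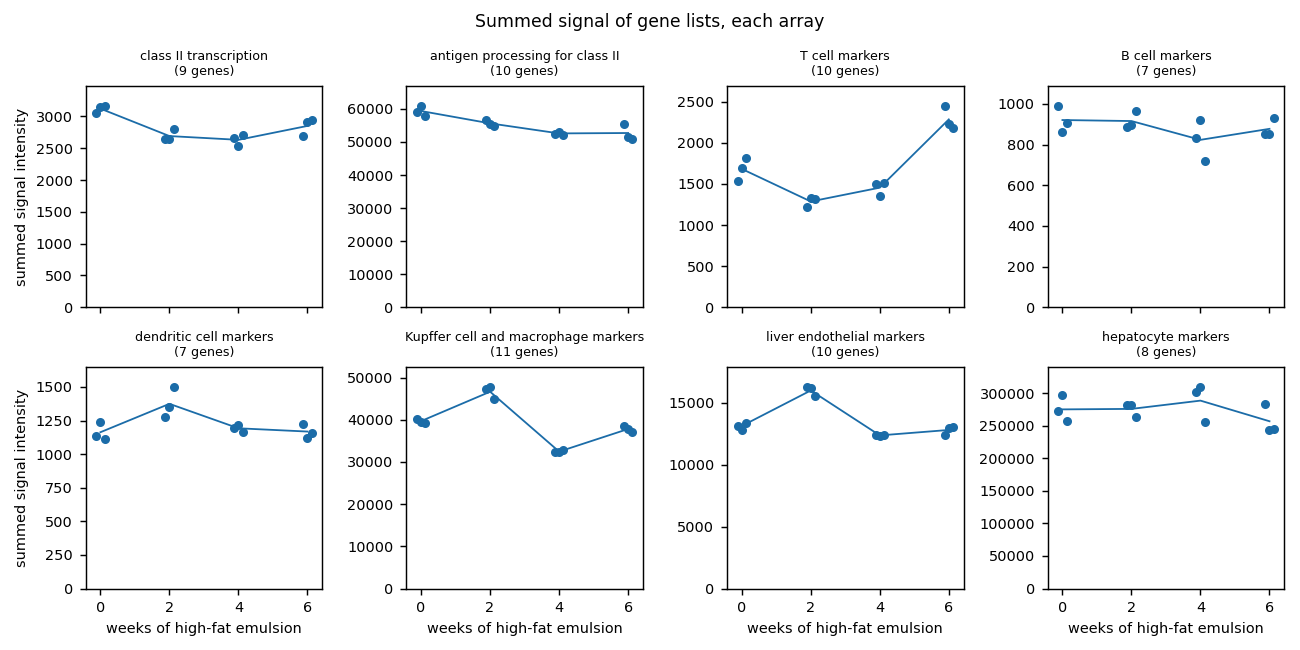
Summed signal intensity of 8 gene lists on each array against weeks of high-fat emulsion, with a line through the group means and each axis starting at 0. The T cell markers have their highest arrays at 6 weeks, as the class II genes do, while the sum of B cell markers stays between 720 and 990.

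Some facts of the arrays touch these values. The log2 ratio of the 3′ to the 5′ probe set of Gapdh, a sign of RNA quality, was 0.16 ± 0.08 at 0h and 0.47 ± 0.03 at 2 weeks, then 0.32 ± 0.03 at 4 weeks and 0.33 ± 0.04 at 6 weeks (SD, n = 3 each). Of 10 listed pancreatic genes, 5 could be tested. Cpa1, a pancreatic enzyme, had a mean signal of 42.1 at 6 weeks and 6264.3 at 0h, and Cpb1 had 120.9 at 6 weeks and 209.7 at 0h, both called lower at 6 weeks. Pnlip and Amy2a3 were called higher at 6 weeks than at 0h, and Cela1 was not called. The part of RNA quality in the class II differences was not tested.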

How the data were processed

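Total RNA from rat liver was measured on 12 Affymetrix arrays. Deposited values are signal intensities per probe set, 1 column per array, made by the authors with GCOS 2.0, per the submitters' processing notes. From the values, arrays were scaled to a trimmed mean (2% off each end) of 500.2 to 500.3, and array medians were 118 to 130. Per the file headers, that deposited sheet also lists log2 ratios and linear ratios of fed over 0h arrays, which the authors computed. Detection calls were not used here.

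Signals were taken as log2(signal + 1), so differences of dim probe sets are understated. After 57 controls were left out, 31042 probe sets remained, and the 21729 with a mean over the 30th percentile (5.45) were tested. limma 3.58.1 (R 4.3.3) was fitted to all 12 arrays with a mean per group (8 residual degrees of freedom), with Benjamini-Hochberg adjustment within each of 6 comparisons and a threshold of 0.05. It was also tested on simulated data. Gene lists used the brightest probe set of each of 11325 genes, with symbols updated through RefSeq (GRCr8). Hla-dma and Hla-dmb were matched to RT1-DMa and RT1-DMb by hand. Part of the interferon gamma signalling list is not reported here. The number of arrays limits the precision. Correlations between arrays were 0.937 to 0.948 within groups and 0.923 to 0.943 between them. The alternatives were quantile normalization, median centring, a pseudocount of 16, other filters, trend and robust moderation, 1 probe set per gene, the series matrix values, a replicate block and each array left out.

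The members and lists were chosen with earlier results of these data known. Named were all member probe sets and the 5 genes most correlated with Cd74 and with RT1-Da. Of each pathway list, at most 4 called genes were named, by size of difference at 6 weeks against 0h. Ctss, Rfx5, Nfyb, Nfyc, the interferon gamma receptor chains, Ifng and some markers were added after their values were seen.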

Additional observations from a re-analysis of the deposited data

Results flagged for a closer look

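For 6 member probe sets the change from 0h was called in opposite directions in 2 fed groups. The rule also required the difference between those changes to be called by limma. Both changes share the 0h arrays, so this difference is the comparison of fed groups already given above and adds no separate test. At 6 weeks against 2 weeks the difference of the log2 changes was 2.52 for RT1-Bb 1371033_at, 2.48 for RT1-Ba 1370822_at and 2.27 for RT1-Da (adjusted p = 5.02e-08 each). It was 2.11 for RT1-Db1 1370383_s_at (adjusted p = 1.9e-06) and 0.73 for RT1-DMb (adjusted p = 0.000874). At 6 weeks against 4 weeks it was 3.43 for RT1-Ba 1370822_at (adjusted p = 9.7e-09), 3.28 for RT1-Bb 1371033_at (1.23e-08) and 2.59 for RT1-Da (2.56e-08). It was 2.71 for RT1-Db1 1370383_s_at (adjusted p = 6.3e-07), 2.19 for Cd74 (2.57e-06) and 1.09 for RT1-DMb (7.02e-05).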

How the results depend on the processing

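Of 44 called member values, none changed sign under any of 21 alternatives, 7 lost their call under at least 1, and 6 uncalled values were called under at least 1. The count of called probe sets at 4 weeks against 2 weeks, 8, was 5 with median centring and 5 to 8 on leaving out 1 array. The other counts on leaving out 1 array were 5 to 6 (2 weeks against 0h), 8 to 8 (4 weeks), 5 to 7 (6 weeks), 7 to 9 (6 weeks against 2 weeks) and 8 to 9 (6 weeks against 4 weeks). Same-numbered arrays did not deviate together (r -0.043 to 0.063, 4 of 12 arrays closest to their own number). With the replicate number as a block the counts were 6, 8 and 8 against 0h and 6, 8 and 8 for 4 against 2, 6 against 2 and 6 against 4 weeks. Median centring moved the share of higher calls over all probe sets at 4 weeks against 0h to 59.2%, beside 44.2%, and at 4 weeks against 2 weeks to 50.9%, beside 39.5%. Uncalled values changed sign. RT1-Ba 1381593_x_at at 4 weeks against 0h was 0.02 with median centring, RT1-Ba 1392334_at at 6 weeks against 0h was 0 with quantile normalization and 0.01 with median centring, and Ciita at 4 weeks against 0h was -0.03 with a pseudocount of 16. Leaving out 1 array gave RT1-Ba 1377334_at -0.43 to 0.37 (2 weeks against 0h) and -0.94 to 0.08 (4 weeks against 2 weeks). It gave RT1-Ba 1381593_x_at -0.15 to 0.13 (4 weeks against 0h), -0.18 to 0.07 (6 weeks against 0h) and -0.21 to 0.12 (6 weeks against 4 weeks). It gave RT1-Ba 1392334_at -0.24 to 0.26 (6 weeks against 0h) and -0.03 to 0.44 (4 weeks against 2 weeks). It gave Ciita -0.11 to 0.82 (2 weeks against 0h), -0.34 to 0.60 (4 weeks against 0h) and -0.54 to 0.02 (4 weeks against 2 weeks). The cause was not tested. Dim probe sets, Ciita among them, have the least precise values.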
